A study of Mus musculus with 6 samples.

Results

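The genes described are those of the proteasome, the protease complex that degrades ubiquitin-tagged proteins. They were the 46 genes, of 10989 with a deposited value, whose symbol begins with Psma, Psmb, Psmc, Psmd, Psme, Psmf or Psmg followed by a digit. They were followed in MPI-II mouse embryonic stem cells. RNA sequencing measured expression in 4 cell lines in which Ddx5 was disrupted (KO, genotype DDX5-/-) and in 2 wild-type libraries (WT, genotype DDX5+/+). Ddx5, also called p68, encodes an RNA helicase of splicing, transcription and microRNA processing. Each KO line was grown from 1 cell clone after a Cas9 nickase and paired guide RNAs had been directed to the second exon of Ddx5 and cells had been selected with G418. Clone and genotype therefore cannot be told apart within a line. All 6 libraries came from cells on feeder cells, at passages 13 to 18, in medium with 15% fetal bovine serum, 1000 U/ml leukemia inhibitory factor, 1 μM of the MEK inhibitor PD0325901 and 3 μM of the GSK3 inhibitor CH99021. No label says that the WT replicates are separate cultures, so p-values measure the spread between these libraries, which may be technical on the WT side.

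The proteasome consists of a barrel-shaped core, called 20S, and a regulatory cap, called 19S. The core has outer rings of alpha subunits (Psma genes), which gate the entrance, and inner rings of beta subunits (Psmb genes), of which Psmb5, Psmb6 and Psmb7 carry the proteolytic sites. The cap has a ring of ATPases (Psmc genes) that unfolds and threads the substrate, and non-ATPase subunits (Psmd genes) that bind ubiquitin chains and remove them. Other caps are encoded by Psme genes, an inhibitor by Psmf1, and chaperones of core assembly by Psmg genes. Cells make the subunits in fixed proportions, and the transcription factor encoded by Nfe2l1 raises their genes together when proteasome activity is low.

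Values are normalized expression scores in the units of the deposited table. They are not read counts, no file gives a depth, and library totals (14612799 to 14722877 units) were equalized by the normalization. Across all genes the log levels correlated at 0.967 to 0.990 between KO lines and at 0.934 between the WT replicates, and across the proteasome genes at 0.982 to 0.997 and 0.978 (genes are not independent replicates). Between KO lines and WT libraries the correlation was 0.89 to 0.932 across all genes and 0.959 to 0.986 across the proteasome genes. Across the proteasome genes, each KO line correlated more with WT replicate 1 (0.981 to 0.986) than WT replicate 2 did (0.978). Ddx5 itself had 5854, 8450, 12793 and 5659 units in KO lines 1 to 4, against 36433 and 36436 units in WT (log2 fold change -2.23, SE 0.32, adjusted p = 0.00807, limma). Of 10 embryonic stem cell markers, 9 did not pass the test and 1 (Nanog) was higher in KO. Of trophoblast markers 4 were measured and 1 (Tfap2c) was higher, and the 1 primitive endoderm marker measured was not called. Of 20 listed feeder fibroblast markers, 15 were measured, and 14 of these were lower in KO. Their summed level was 6327 to 9584 units in the KO lines, against 47090 and 26077 units in WT replicates 1 and 2, and none stood at 0 in any library. The part of these feeder differences in the results for proteasome genes was not tested. In such bulk samples, fewer cells of a type and less RNA per cell cannot be told apart.

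Most proteasome genes were slightly lower in the KO lines, and few of them passed the test. Of the 46 genes, 34 (73.9%) had a negative log2 fold change, against 45.7% of all genes. The median log2 fold change was -0.14, against 0.04 over all genes, and the values ran between -0.67 for Psmb5 and 0.82 for Psmg3. A gene was called when its Benjamini-Hochberg adjusted p over all genes was below 0.05 in limma. By this rule 5 proteasome genes fell (10.9%), where 7.34% of all genes were called lower: Psmb5, Psme2, Psmc2, Psmc5 and Psmd14. The rise of 1, Psmg3 (2.17%), stood beside 9.75% of all genes called higher. The remaining 40 did not pass. At an unadjusted p below 0.05, 13 proteasome genes were lower (28.3%, against 15.7% of all genes) and 3 were higher (6.52%, against 20.4%). All 4 KO lines lay below both WT libraries for 17 genes (37.0%, against 19.6% of all genes) and above both for 3 genes (6.52%, against 24.1%).

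**Figure D1:**
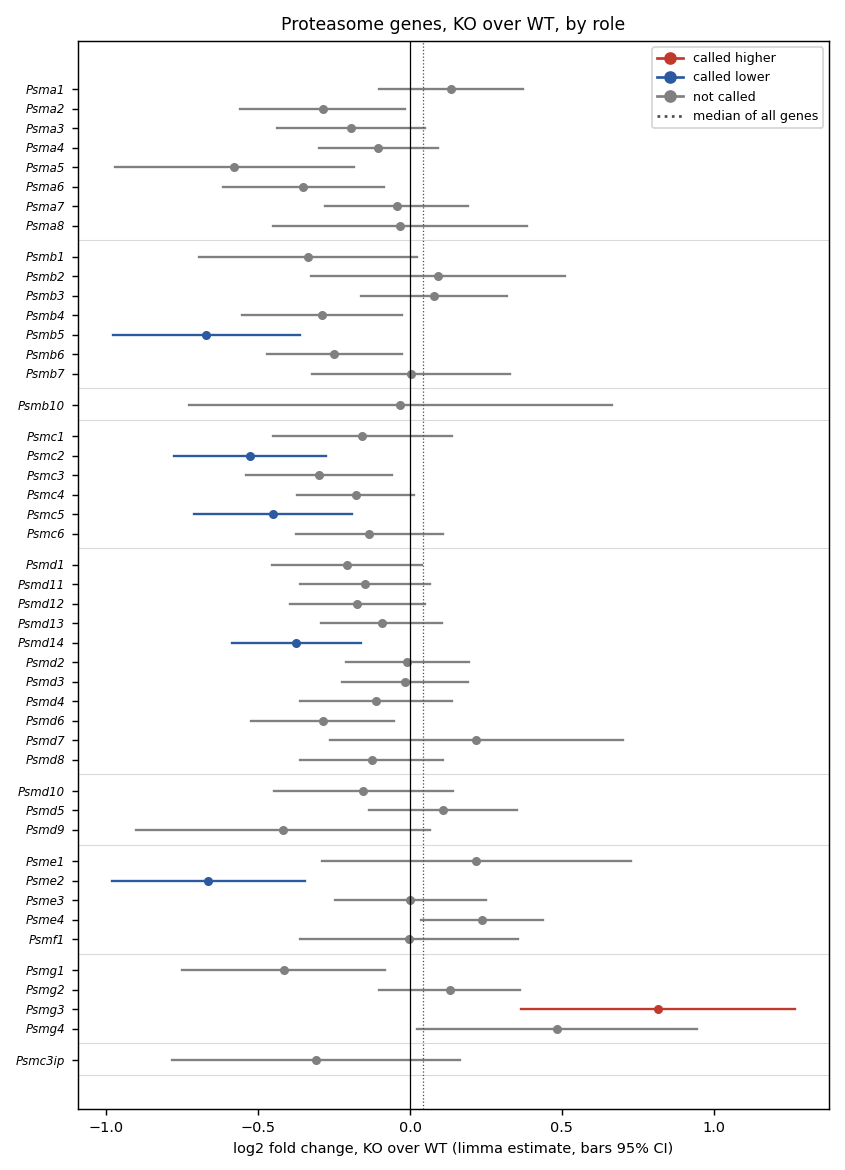
Log2 fold change, KO over WT, of each of the 46 proteasome genes (points, limma estimates; bars, 95% confidence intervals), grouped by role from the core (top) to the assembly chaperones, with Psmc3ip last. Most points lie left of 0 and of the dotted median of all genes at 0.04, and the 5 genes called lower and 1 called higher are coloured.

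The shift was seen in each KO line against each WT library. The median log2 difference of the 46 genes was -0.17, -0.17, -0.11 and -0.22 in KO lines 1 to 4 against WT replicate 1, and -0.18, -0.17, -0.09 and -0.21 against WT replicate 2. Over all genes these medians lay between 0.01 and 0.07. Between the WT replicates the same genes differed by a median of 0.10 (replicate 2 minus replicate 1), where all genes gave -0.04. The 8 comparisons share libraries and are not independent of each other.

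**Figure D2:**
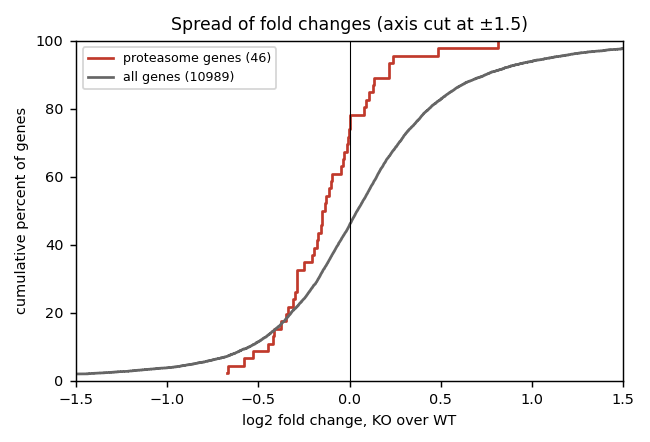
Cumulative percent of genes (y axis) by log2 fold change, KO over WT (x axis, cut at ±1.5), for the 46 proteasome genes and all 10989 genes. The curve of the proteasome genes lies left of that of all genes around 0 and is steeper, with values between -0.67 and 0.82.

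The calls depended on single libraries. Without KO line 2 and without KO line 3 no proteasome gene was called in limma (10 and 12 at an unadjusted p below 0.05), while 4.30% and 5.21% of all genes were. Without WT replicate 2, Psmb5 was the 1 proteasome gene called, with 13.5% of all genes called. Without WT replicate 1, 11 were lower and 2 higher, with 30.1% of all genes called. Without KO line 1 and without KO line 4, 3 were lower (Psmb5, Psmc2 and Psme2), and in the second of these fits Psmg3 and Psmg4 were higher, with 11.1% and 13.1% of all genes called. The number with a negative log2 fold change stayed between 30 and 35 of 46 in these 6 fits.

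The bases before the start of the 6 called genes are shown because these genes carry the called differences. They are 100 bases read 5′ to 3′ on the strand of the gene, up to the outermost start that RefSeq (build GRCm38.p6) or GENCODE gives. Capitals mark matches to 4 motifs searched on both strands: TGACNNNGC (core of the antioxidant response element, which Nfe2l1 binds), CCAAT, TTCNNNGAA (core of the STAT site) and GGGCGG (GC box). A GC box on the opposite strand reads CCGCCC. Matches do not overlap in the stretches shown.
Psmb5, chr14:54618023-54618122, minus strand: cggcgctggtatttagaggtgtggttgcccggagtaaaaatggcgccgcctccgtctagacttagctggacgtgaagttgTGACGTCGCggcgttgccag
Psmc2, chr5:21785175-21785274, plus strand: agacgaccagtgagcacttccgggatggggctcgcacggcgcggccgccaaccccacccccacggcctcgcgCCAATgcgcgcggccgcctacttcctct
Psmc5, chr11:106256054-106256153, plus strand: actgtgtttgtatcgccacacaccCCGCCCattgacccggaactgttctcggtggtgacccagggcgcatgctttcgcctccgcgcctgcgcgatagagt
Psmd14, chr2:61711594-61711693, plus strand: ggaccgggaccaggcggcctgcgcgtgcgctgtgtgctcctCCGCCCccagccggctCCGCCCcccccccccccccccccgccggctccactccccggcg
Psme2, chr14:55591114-55591213, minus strand: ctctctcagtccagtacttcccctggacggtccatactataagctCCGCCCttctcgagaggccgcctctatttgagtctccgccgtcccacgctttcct
Psmg3, chr5:139826895-139826994, minus strand: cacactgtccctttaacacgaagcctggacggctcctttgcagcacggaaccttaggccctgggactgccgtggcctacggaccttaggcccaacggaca

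The stretches of Psmb5 and Psmc2 hold 1 match each, to the antioxidant response element core and to CCAAT. Those of Psmc5 and Psme2 hold 1 GC box each and that of Psmd14 holds 2, while that of Psmg3 holds none of the 4 motifs. No motif was present in all of the genes that fell. RefSeq promoter windows of 300 bases (250 before the start and 50 after) were given for 38 of the 46 genes, 41 windows in all. The antioxidant response element core was in 14.6% of these windows, against 12.4% of all 32851 windows. CCAAT was in 31.7% against 37.4%, the STAT site core in 4.88% against 8.30%, and the GC box in 56.1% against 35.7%. Counted by gene among those of the deposited table, the GC box was in a window of 57.9% of the 38 proteasome genes, against 71.2% of all 8270 genes with a window, and the antioxidant response element core in 15.8% against 17%. A gene counts when any of its windows matches, and the 32851 windows are not limited to genes of the deposited table. The shares by window and by gene therefore have unlike backgrounds, and the direction for the GC box depends on which is used. A match is a description of letters and not of binding.

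Psmb5 had the largest fall. It encodes the core subunit with chymotrypsin-like activity, the main target of the proteasome inhibitor bortezomib (ENSMUSG00000022193, chromosome 14, 54614119 to 54618022, minus strand, build mm10). Psmb5 measured 1478, 1405, 1512 and 1346 units in KO lines 1 to 4, against 1987 and 2643 units in WT. The KO lines lay close together and below both WT libraries, which differed from each other more than the KO lines did. It shares 109 exon bases with the microRNA gene Mir686 on the same strand and has an annotated pseudogene, Psmb5-ps, so its level is uncertain where reads were split. The mean was 1435 ± 74.4 units in KO (SD, n = 4) and 2315 ± 464 units in WT (SD, n = 2), so Psmb5 fell by 38.0% (log2 fold change -0.67, SE 0.13, adjusted p = 0.0187, limma). With 1 library left out the change lay between -0.88 and -0.47, and the call was lost without KO line 2 or KO line 3 (adjusted p up to 0.0663).

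The other catalytic subunits did not pass. Psmb6, which has caspase-like activity, had 3715, 3604, 4020 and 3381 units in KO lines 1 to 4, against 4236 and 4505 units in WT. All 4 lines were below both WT libraries, yet the log2 fold change of -0.25 missed the threshold (SE 0.09, adjusted p = 0.108, limma). Psmb7, which has trypsin-like activity, stood at 4157, 4252, 4626 and 3914 units in KO, against 4936 and 3608 units in WT. Its WT libraries lay on either side of all KO lines, and its log2 fold change was 0.00 (SE 0.14, 95% interval -0.32 to 0.33, adjusted p = 0.99, limma). Whether Psmb5 changed more than these 2 genes was not tested.

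Among the beta subunits without a proteolytic site, Psmb4 and Psmb1 had log2 fold changes of -0.29 and -0.34, and Psmb2 and Psmb3 of 0.09 and 0.08, none of them called. Psmb2 differed most between the WT libraries within the beta rings, at 2925 to 3228 units in KO against 3620 and 2258 units in WT. Without WT replicate 1 it was called higher (log2 0.43, adjusted p = 0.022), and without WT replicate 2 its log2 fold change was -0.25. Its direction therefore rests on which WT library is used.

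Of the 8 alpha subunits of the core, none was called and 7 had a negative log2 fold change (median -0.15). Psma5 had the largest difference, at 1548, 1388, 1480 and 1384 units in KO lines 1 to 4, against 1756 and 2682 units in WT. The lines lay below both WT libraries, and the WT libraries differed 1.53-fold. Its log2 fold change of -0.58 missed the threshold (SE 0.17, adjusted p = 0.0552, limma). It was -0.88 without WT replicate 1 (adjusted p = 0.00529) and -0.28 without WT replicate 2. Psma6 and Psma2 also lay below both WT libraries in every line (log2 -0.35 and -0.29), as did Psma3 (-0.20). Psma4 (-0.10), Psma7 (-0.04) and Psma1 (0.13) overlapped between the groups. Psma8, a relative of Psma7 that forms part of the proteasome of male germ cells, stood at 276 to 371 units in KO against 286 and 383 units in WT, with a log2 fold change of -0.03 and a 95% interval from -0.45 to 0.38.

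All 6 ATPases of the cap had a negative log2 fold change (median -0.24), and 2 of them fell. Psmc2 (chromosome 5, 21785283 to 21803787, plus strand) had 2316, 2330, 2330 and 2147 units in KO lines 1 to 4, against 2974 and 3648 units in WT. The groups did not overlap, and KO line 4 was the lowest library. Psmc2 fell by 31.1% (log2 -0.53, SE 0.11, adjusted p = 0.0203, limma), and the call was lost without KO line 2, KO line 3 or WT replicate 2 (adjusted p up to 0.0684). Psmc5, also linked to transcription (chromosome 11, 106256154 to 106263120, plus strand), stood at 2652, 2532, 2566 and 2436 units in KO, against 3105 and 3907 units in WT. Psmc5 fell by 27.4% (log2 -0.45, SE 0.11, adjusted p = 0.0354, limma), a call kept in 1 of the 6 leave-one-out fits (largest adjusted p 0.104). Psmc3 (-0.30), Psmc4 (-0.18), Psmc1 (-0.16) and Psmc6 (-0.13) did not pass. Psmc3 and Psmc4 were lower in all 4 lines than in both WT libraries.

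**Figure D3:**
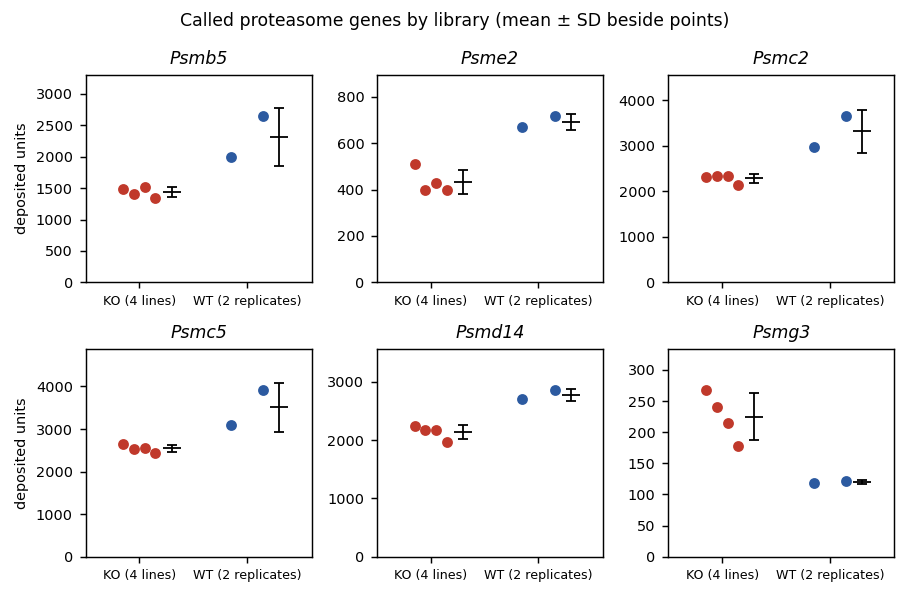
Deposited units (y axis, from 0) of the 6 called proteasome genes in the 4 KO lines (left, in order of line number) and the 2 WT replicates (right), with mean ± SD beside the points. In Psmb5, Psme2, Psmc2, Psmc5 and Psmd14 the KO lines lie below both WT libraries, and in Psmg3 they lie above.

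Of the 11 non-ATPase cap subunits 1 fell, 10 did not pass and 10 had a negative log2 fold change (median -0.13). The gene that fell was Psmd14, the deubiquitinase that cuts ubiquitin chains from substrates at the cap (chromosome 2, 61711694 to 61800376, plus strand). Its level was 2246, 2176, 2168 and 1971 units in KO lines 1 to 4, against 2702 and 2850 units in WT. The lines did not overlap with WT, and the difference of the means exceeded the spread within both groups (2140 ± 118 in KO, SD, n = 4; 2776 ± 105 in WT, SD, n = 2). This difference was -0.37 on the log2 scale (SE 0.09, adjusted p = 0.0345, limma) and lay between -0.41 and -0.34 with a library left out, where it was called in 1 of 6 fits. Psmd6 (-0.29) and Psmd12 (-0.17) were lower in each line than in both WT libraries without passing. The scaffold subunits Psmd1 and Psmd2, the largest of the cap, had log2 fold changes of -0.21 and -0.01. The ubiquitin receptor Psmd4 had one of -0.11. Psmd1 shares 301 exon bases with the gene Gm21972 on the same strand, so its level is uncertain where reads were split. Psmd11 (-0.15), Psmd8 (-0.13), Psmd13 (-0.09) and Psmd3 (-0.02) overlapped between the groups.

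Psmd7 was the 1 cap subunit with a positive value. It encodes the partner of Psmd14 in the deubiquitinating module and lies on chromosome 8 (107580381 to 107588464, minus strand). Its level was 3148, 4689, 4624 and 5134 units in KO lines 1 to 4, against 3324 and 4162 units in WT. KO line 1 and WT replicate 1 were low, and KO lines 2 to 4 and WT replicate 2 were high. The 603 measured genes of chromosome 8 as a whole were split in the same way. Their median log2 deviation from each gene's mean over the 6 libraries, centred on all genes, was -0.34 in KO line 1, 0.20, 0.18 and 0.15 in KO lines 2 to 4, -0.34 in WT replicate 1 and 0.12 in WT replicate 2. The log2 fold change of Psmd7 was 0.22 (adjusted p = 0.479, limma), and 0.06 once the shift of each chromosome in each library had been removed (adjusted p = 0.678). Psmd7 was singled out after its values were seen.

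Psmb10, the other proteasome gene on chromosome 8, encodes a catalytic subunit of the immunoproteasome, a form of the core that is induced by interferon and prepares peptides for antigen presentation. It was the 1 immunoproteasome subunit measured, and Psmb8, Psmb9 and the thymus subunit Psmb11 were not analysed here. Psmb10 had 120, 165, 223 and 263 units in KO lines 1 to 4, against 182 and 198 units in WT. The KO lines spread 2.19-fold around the WT libraries, so no difference was detectable (log2 -0.03, SE 0.29, 95% interval -0.73 to 0.66, adjusted p = 0.949, limma). KO line 1 was again the lowest library, but WT replicate 1 did not stand as low as it. Once the shift of each chromosome in each library had been removed, the log2 fold change of Psmb10 was -0.19 (adjusted p = 0.58, limma).

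**Figure D4:**
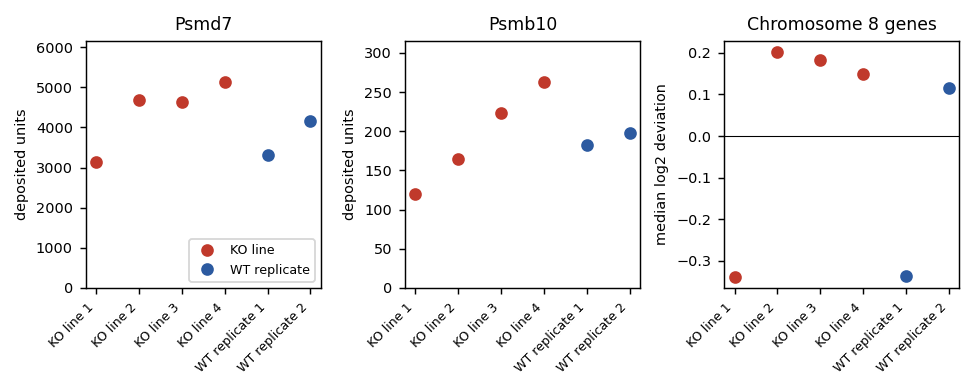
Deposited units of Psmd7 and Psmb10 and the median log2 deviation of the 603 genes of chromosome 8 (y axes) in each of the 6 libraries (x axis, KO lines left, WT replicates right). KO line 1 and WT replicate 1 are low for Psmd7 and for chromosome 8.

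Among the alternative caps, Psme2 fell while its partner Psme1 did not pass. Both encode the subunits of PA28, a mixed ring that opens the core without ubiquitin and is induced by interferon, and they lie 5911 bases apart on chromosome 14 (Psme2 at 55587441 to 55591113, minus strand). Psme2 had 508, 400, 428 and 396 units in KO lines 1 to 4, against 668 and 716 units in WT. It was lower in every line, and its mean fell by 37.4% (log2 -0.66, SE 0.13, adjusted p = 0.0206, limma), and the call was lost without KO line 2, KO line 3 or WT replicate 2 (adjusted p up to 0.0743). Psme1 stood at 899, 848, 1046 and 1119 units in KO, against 1077 and 644 units in WT. Its WT libraries enclosed 3 of the KO lines, and its log2 fold change was 0.22 (95% interval -0.29 to 0.73). The ratio of Psme2 to Psme1 was 0.565, 0.472, 0.409 and 0.354 in KO lines 1 to 4, against 0.620 and 1.11 in WT. Every line was below both WT libraries in this ratio, at the smallest p that a two-sided exact permutation of these libraries allows (p = 0.0667). The ratio was not a planned comparison, and Psme2 alone already separated the groups, so this test is no separate support. KO line 1 (0.565) lay near WT replicate 1 (0.620), and WT replicate 2 (1.11) lay far above both. Reads of Psme2 may be shared with its near copy Psme2b, so its level is uncertain.

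Psme3, a nuclear cap that forms a ring of its own, had a log2 fold change of 0.00 with a 95% interval from -0.25 to 0.25. Psme4, which encodes the large single-chain cap PA200 linked to histone degradation, stood at 5253 to 5872 units in KO against 4474 and 4942 units in WT. It was above both WT libraries in each line, with a log2 fold change of 0.24 that did not pass (adjusted p = 0.0955, limma). Psmf1, the inhibitor, overlapped between the groups, with a 95% interval from -0.36 to 0.36.

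Assembly chaperones of the core went in both directions. Psmg3, which pairs with Psmg4 and helps to order the alpha ring, had the largest difference of the 46 genes (ENSMUSG00000029551, chromosome 5, 139823592 to 139826885, minus strand). Its level was 267, 240, 214 and 178 units in KO lines 1 to 4, against 118 and 122 units in WT. Every KO line was above both WT libraries, which lay close to each other, while the lines spread more widely. It rose 1.87-fold in the mean (log2 0.82, SE 0.19, adjusted p = 0.0318, limma) and was called in 2 of the 6 leave-one-out fits (largest adjusted p 0.104). It shares 280 exon bases with the predicted gene Gm26938 on the same strand, so its reads may be split and its level is uncertain. Psmg4 stood at 535, 478, 524 and 342 units in KO, against 344 and 310 units in WT. KO line 4 lay at the WT level and the others above it (log2 0.48, SE 0.20, adjusted p = 0.123, limma), and Psmg4 was called without KO line 4 (adjusted p = 0.0318).

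The other chaperone pair was Psmg1 and Psmg2, the first of which had 822, 838, 878 and 758 units in KO lines 1 to 4, against 948 and 1284 units in WT. Psmg1 was lower in each line and did not pass (log2 -0.42, SE 0.14, adjusted p = 0.0822, limma). Psmg2 had a log2 fold change of 0.13, with all 4 lines above both WT libraries. Over the 6 libraries the log levels most like those of Psmg3 were those of Psme4 (Pearson r = 0.896), Psmg4 (0.895) and Psmg2 (0.716), given as a description of genes that share these libraries.

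Chaperones of cap assembly were not called. Psmd9 had 228, 334, 329 and 278 units in KO lines 1 to 4, against 332 and 461 units in WT, and the groups overlapped (log2 -0.42, SE 0.21, adjusted p = 0.19, limma). It shares 1849 exon bases with an RNA on the opposite strand, and reads of the pair cannot be told apart without strand. Psmd10, also called gankyrin, and Psmd5 had log2 fold changes of -0.15 and 0.11. Psmc3ip, whose symbol matches the rule although its protein works in meiotic recombination and is no proteasome subunit, had one of -0.31 and did not pass. Without it 45 genes remain, with 33 below 0 and the same 6 calls.

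**Figure D5:**
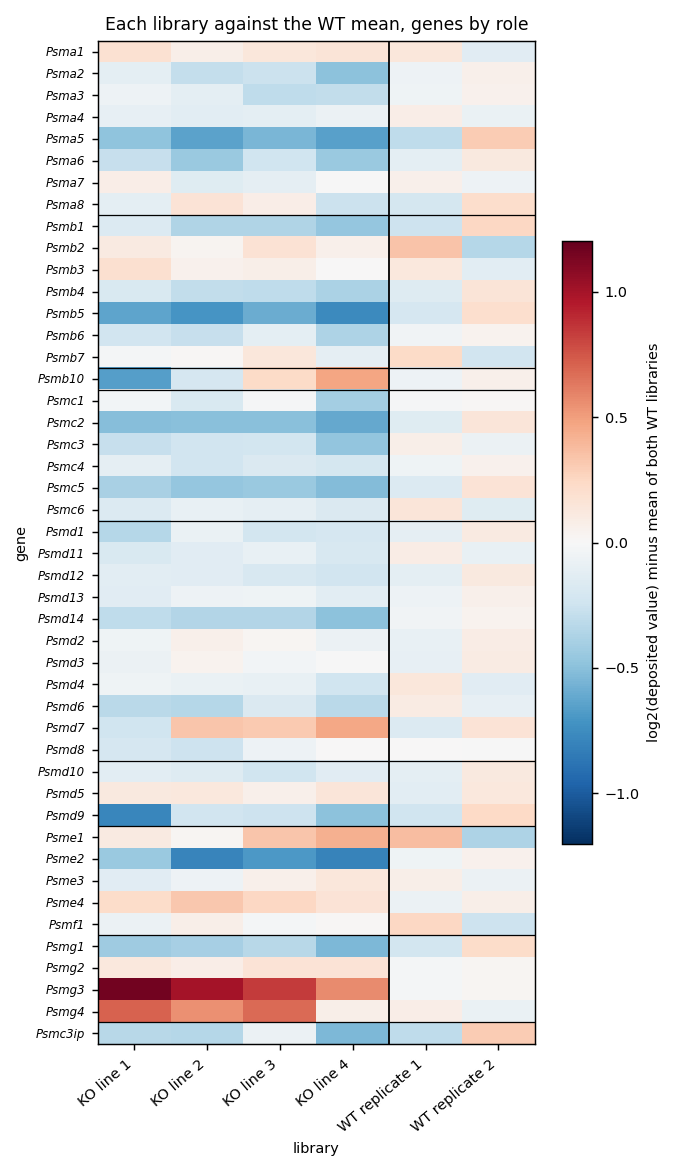
Log2 of the deposited value in each library (columns, KO lines left and WT replicates right) minus the mean of both WT libraries, for the 46 genes (rows, by role; black lines separate roles). Blue is lower and red is higher than the WT mean, and Psmb5, Psmc2, Psmc5 and Psme2 are blue in all 4 KO lines while Psmg3 is red.

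Genes that work with the proteasome but bear other names were compared as lists, beside 7.34% of all genes called lower and 9.75% called higher. Of 10 measured partners, 2 fell and 8 did not pass (median log2 -0.04). Uchl5, a deubiquitinase of the cap, had a log2 fold change of -0.64 (adjusted p = 0.0197, limma), and Zfand5, which activates the proteasome, one of -0.53 (adjusted p = 0.0306). Uchl5 lost its call without KO line 2 or KO line 3 (adjusted p up to 0.0672), and Zfand5 kept it in 1 of the 6 leave-one-out fits (largest adjusted p 0.0893). Pomp, the chaperone of core maturation, stood at 1160 to 1426 units in KO against 1580 and 1731 units in WT without passing (log2 -0.37, adjusted p = 0.0615). The ubiquitin receptor Adrm1 and the small subunit Shfm1 had log2 fold changes of -0.03 and -0.25.

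Of 9 measured genes of the Nfe2l1 pathway, 1 fell, and the gene of the factor itself did not pass. Nfe2l1 had 4233, 4189, 3976 and 4608 units in KO lines 1 to 4, against 4018 and 3901 units in WT, so the groups overlapped (log2 0.10, 95% interval -0.11 to 0.31). The 1 call was Ufd1l, a cofactor of the segregase Vcp (log2 -0.40, adjusted p = 0.0318, limma), which was lost without any 1 of the KO lines (largest adjusted p 0.0986). The protease gene Ddi2, which activates the Nfe2l1 protein, had a log2 fold change of 0.13, and Vcp one of -0.22.

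Of 12 measured ubiquitin genes, activating enzymes and shuttles, 1 was called. It was Ubb, which encodes ubiquitin in repeats, at 10374 to 12775 units in KO against 14342 and 20661 units in WT (log2 -0.56, adjusted p = 0.0495, limma). Its log2 fold change lay between -0.83 and -0.30 in the 6 leave-one-out fits. The call was lost without any 1 of the KO lines and also without WT replicate 2. Ubb was called in 5 of the 9 other alternatives without a replicate block. Of these 5, 1 is the fit without a minimum, which is the main fit again.

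Of 10 measured interferon and antigen-processing genes, the setting in which PA28 and the immunoproteasome work, 2 fell, 1 rose and 7 did not pass (median log2 -0.48). The class I heavy chain gene H2-D1 had a log2 fold change of -1.31 (adjusted p = 0.0133, limma) and the interferon factor Irf9 one of -0.93 (adjusted p = 0.0201). Stat2, the partner of Irf9, had one of 1.58 (adjusted p = 0.0224). H2-D1 kept its call in all 6 leave-one-out fits, while Irf9 and Stat2 lost theirs without KO line 2, KO line 3 or WT replicate 2 (largest adjusted p 0.0714 for Irf9 and 0.0906 for Stat2). The summed feeder markers were lower in KO as well, and their part in these values was not tested.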

How the data were processed

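The deposited table holds 1 whole-number score per gene and library, made by the authors. Bowtie2 2.2.0, RSEM 1.2.17 and the build mm10 appear in the submitters' processing notes, without roles. Total RNA had been extracted with TRIzol, per the labels. The table calls its values CPM, but the library totals are 14612799 to 14722877, so they were treated as normalized scores of unknown depth and not as counts. The test chosen for CPM was kept. Each value was divided by 14.7, and log2(value + 1) was fitted with limma 3.58.1 in R 4.3.3 (KO over WT, empirical Bayes with a mean-variance trend), with Benjamini-Hochberg adjustment over 10989 genes. Fold changes are on the log2(value + 1) scale, so those of low genes are understated. A minimum of 1 scaled unit in 2 libraries removed 0 genes. The script was tested on simulated data. The smallest p that a permutation of 4 against 2 libraries can give is 0.0667. All members are named. Full values by library were set for Ddx5, the called members, the 10 with the largest absolute log2 fold change and the catalytic subunits, and every called gene of the partner lists was named. Values by library of Psmd7, Psme1 and Nfe2l1 were added after they were seen. Members and gene lists were chosen with earlier results of these data known. Positions are from GENCODE M21, matched by Ensembl ID, and promoter windows from RefSeq. Whether counting used strand is not given in the sources used here, so reads of overlapping genes cannot be told apart, and reads of Psmb5, Psmb6, Psmb7 and Psme2 may be shared with near copies. Replicate numbers shared by KO and WT were not taken as pairs, although KO line 1 and WT replicate 1 shared the low level of chromosome 8 genes. Alternatives were other pseudocounts (0.25 and 5), minimums, scalings, variance models, library weights, a replicate block and each library left out.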

Additional observations from a re-analysis of the deposited data

Results flagged for a closer look

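Single libraries stood apart within the 4 KO lines for 2 of the 46 proteasome genes, by Dixon's test at its 95% critical value, which chance passes in about 1 group of 20, so 2 of 46 is near the number that chance gives. Psmc2 had 2147 units in KO line 4, and 2316 to 2330 units in the other KO lines. Psmd6, a cap subunit, had 1888 units in KO line 3, and 1675 to 1700 units in the others.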

How the results depend on the processing

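Over all genes 1878 were called. The counts of 5 proteasome genes lower and 1 higher were the same with either other pseudocount, after quantile normalization and after removal of chromosome shifts. The fit without a minimum is the main fit again, because the minimum removed 0 genes, so it tests nothing. Library totals had already been equalized, and Dppa5a has 36418 units in all 4 KO lines. Quantile normalization of such scores is therefore a weak check. With trimmed-mean scaling 6 were lower, as Psma5 was added, and the split of all calls was 946 higher and 984 lower, against 1071 and 807. With a minimum of 20 scaled units 0 were higher, because Psmg3 was no longer tested. Without the mean-variance trend 3 were lower. With library weights 382 genes were called, with 0 proteasome genes higher and 0 lower in limma (7 at an unadjusted p below 0.05). Leaving out 1 library gave 472 to 3304 genes called, 0 to 2 proteasome genes higher and 0 to 11 lower. Where 1 WT library is left, it is assumed to vary like the KO lines. A replicate block left 20 genes called, with 0 proteasome genes higher and 0 lower in limma (6 at an unadjusted p below 0.05). The deviations of same-numbered libraries from their group means correlated at 0.145 and 0.097. Deviations of 2 WT libraries mirror each other, so these values cannot decide whether the numbers mark pairs. The numbers were not taken as pairs in the main fit. The number of proteasome genes below 0 was 30 to 36 in these fits, and their median log2 fold change -0.19 to -0.12. The cause of these differences was not tested. Read depth is unknown, so counting error cannot be given, and 2 WT libraries limit the precision.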
